A study of Mus musculus with 6 samples.

Results

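The chromatin contacts of the R2 enhancer were compared with those of the Mpg promoter at the mouse α-globin locus in wild type (WT) erythroid cells. R2 and Mpg lie on opposite sides of the upstream boundary of the α-globin domain. Both viewpoints were captured from the same cells, so each of 3 WT samples gave 1 R2 and 1 Mpg library. These 3 samples were chosen by genotype from 6 in the series, and the other 3 carry D3839, a deletion of the CTCF motifs at these boundary sites (HS-38 and HS-39), and serve here for 1 comparison only. The WT cells were Ter-119+ cells (Ter-119 is a surface antigen of the red cell lineage), selected with magnetic beads from spleens of female C57BL/6 mice (label C57Bl6) that had been treated with phenylhydrazine, which destroys circulating red cells and fills the spleen with erythroid precursors. D3839 samples were Ter-119+ spleen cells after the same treatment. The labels call the replicates biological and give no age. Contact tables hold no expression, so the erythroid label could not be compared with markers.

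Adult α-globin is encoded by the duplicated genes Hba-a1 and Hba-a2, and its high output in red cell precursors depends on enhancers (R1, R2, R3, Rm and R4) that lie upstream, mostly in introns of the neighbouring gene Nprl3. CTCF is a DNA-binding protein that blocks the extrusion of chromatin loops by cohesin, and its sites flank many such domains. Tri-C ligates fragments that are close in the nucleus, captures a viewpoint fragment and sequences reads long enough to hold further fragments, so that 1 read can report that the viewpoint met 2 other sites on the same allele. Each such further fragment is called a reporter, a pair of reporters is called a contact here, and a contact therefore has 2 ends.

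Each deposited table counts unique contacts between NlaIII restriction fragments of mouse chromosome 11 (build mm9). R2 libraries held 20171, 18823 and 26893 contacts in replicates 1, 2 and 3, and Mpg libraries held 33709, 31203 and 39540. Values below refer to the region chr11:32070001-32250000, with the stretches from 32149000 to 32153000 around R2 and from 32125000 to 32128000 around Mpg left out of both viewpoints. What remained, called the matrix, held 7875 to 12110 contacts from R2 and 10075 to 15972 from Mpg. A count of 0 in a matrix allows a share of contacts of up to 0.0381% from R2 and 0.0298% from Mpg in the shallowest library (3 counts), which covers counting error only, since contacts of 1 read are not independent. Contacts between R2 and Mpg themselves were not measurable here, because fragments captured as a viewpoint are excluded from the reporters.

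The viewpoint and the reporter fragments most often joined to it show the units of the measurement. Each is printed from the plus strand of mm9 with the flanking NlaIII sites (CATG) in capitals, and for each window the fragment with the most ends over the 6 libraries was taken. The R2 viewpoint fragment is the single fragment of at least 25 bases between 32149923 and 32152111 that was never seen from Mpg. It lies in an intron of Nprl3.
R2 viewpoint, chr11:32150924-32151104: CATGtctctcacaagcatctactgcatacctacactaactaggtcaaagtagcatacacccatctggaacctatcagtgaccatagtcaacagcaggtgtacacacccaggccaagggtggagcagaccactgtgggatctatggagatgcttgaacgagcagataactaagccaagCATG
R1, chr11:32145842-32145962, Nprl3 intron: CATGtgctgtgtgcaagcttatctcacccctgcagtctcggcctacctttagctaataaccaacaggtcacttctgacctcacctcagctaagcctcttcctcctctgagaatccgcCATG
R3, chr11:32155813-32156028, Nprl3 intron: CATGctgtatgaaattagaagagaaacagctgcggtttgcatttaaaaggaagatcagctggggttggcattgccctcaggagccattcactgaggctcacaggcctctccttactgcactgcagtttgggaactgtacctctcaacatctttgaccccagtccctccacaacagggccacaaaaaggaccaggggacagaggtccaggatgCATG
Rm, chr11:32163333-32163500, Nprl3 intron: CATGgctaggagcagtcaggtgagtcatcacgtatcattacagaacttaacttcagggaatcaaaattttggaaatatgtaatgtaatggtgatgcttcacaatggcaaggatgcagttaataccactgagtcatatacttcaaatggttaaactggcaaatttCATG
Rhbdf1, chr11:32123804-32123892, intergenic, beside the Rhbdf1 start: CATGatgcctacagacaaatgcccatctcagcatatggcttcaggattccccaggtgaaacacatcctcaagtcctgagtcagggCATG
The R1 fragment carried 130, 148 and 176 ends from R2 in replicates 1, 2 and 3 against 18, 3 and 38 from Mpg. The Rhbdf1 fragment carried 13, 10 and 18 from R2 against 112, 138 and 189 from Mpg, the opposite order. The R3 fragment carried 121, 97 and 173 ends from R2 against 19, 17 and 21 from Mpg, and the Rm fragment 50, 69 and 110 against 12, 6 and 41. The Mpg viewpoint fragment, chr11:32126462-32126692, overlaps an exon at the start of Mpg and an exon of Nprl3. The leading fragments of the α-globin windows, chr11:32184423-32184493 at the 3′ end of Hba-a1 and chr11:32197240-32197310 at that of Hba-a2, have the same 71 bases, so the files cannot tell from which gene those reads came.

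The enhancer and the promoter saw different parts of the locus (plot of ends along the region). From R2, reporter ends concentrated on the enhancers and the globin genes. From Mpg, they concentrated between Rhbdf1 and the HS-38/HS-39 boundary and, at the far side, around and past Hbq1a. The enhancer stretch between R2 and Hba-x held 28.4, 28.1 and 25.9% of matrix ends from R2 in replicates 1, 2 and 3 and 3.37, 3.58 and 5.12% from Mpg, a 6.83-fold difference of the means (27.5% ± 1.40 against 4.02% ± 0.954, SD, n = 3). The stretch from Hba-x to Hbq1a, with all α-like globin genes, held 34.6, 37.3 and 36.6% from R2 and 13.6, 9.88 and 17.3% from Mpg (36.2% ± 1.40 against 13.6% ± 3.73). R2 lay above Mpg in every replicate of both stretches and the groups did not overlap. The order was the opposite on the Mpg side of the boundary. The 9 kb from Mpg to HS-39 held 3.60, 3.96 and 4.22% of ends from R2 and 26.3, 27.1 and 24.8% from Mpg, and the 55 kb upstream of Mpg held 4.87, 5.28 and 5.48% from R2 and 25.2, 26.6 and 20.7% from Mpg. The 12 kb between HS-39 and R2, with the boundary itself at one edge and R1 and HS-29 at the other, was mixed: 18.7% ± 0.968 from R2 and 10.3% ± 0.317 from Mpg. Past Hbq1a, R2 held 8.76, 6.87 and 9.93% and Mpg 21.1, 22.8 and 21.5%, although Mpg lies farther away. For each of these 6 stretches the exact sign-flip test over 3 pairs gave p = 0.25 and the exact permutation test of 3 against 3 gave p = 0.1 (both two-sided), the smallest values these designs allow.

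**Figure D1:**
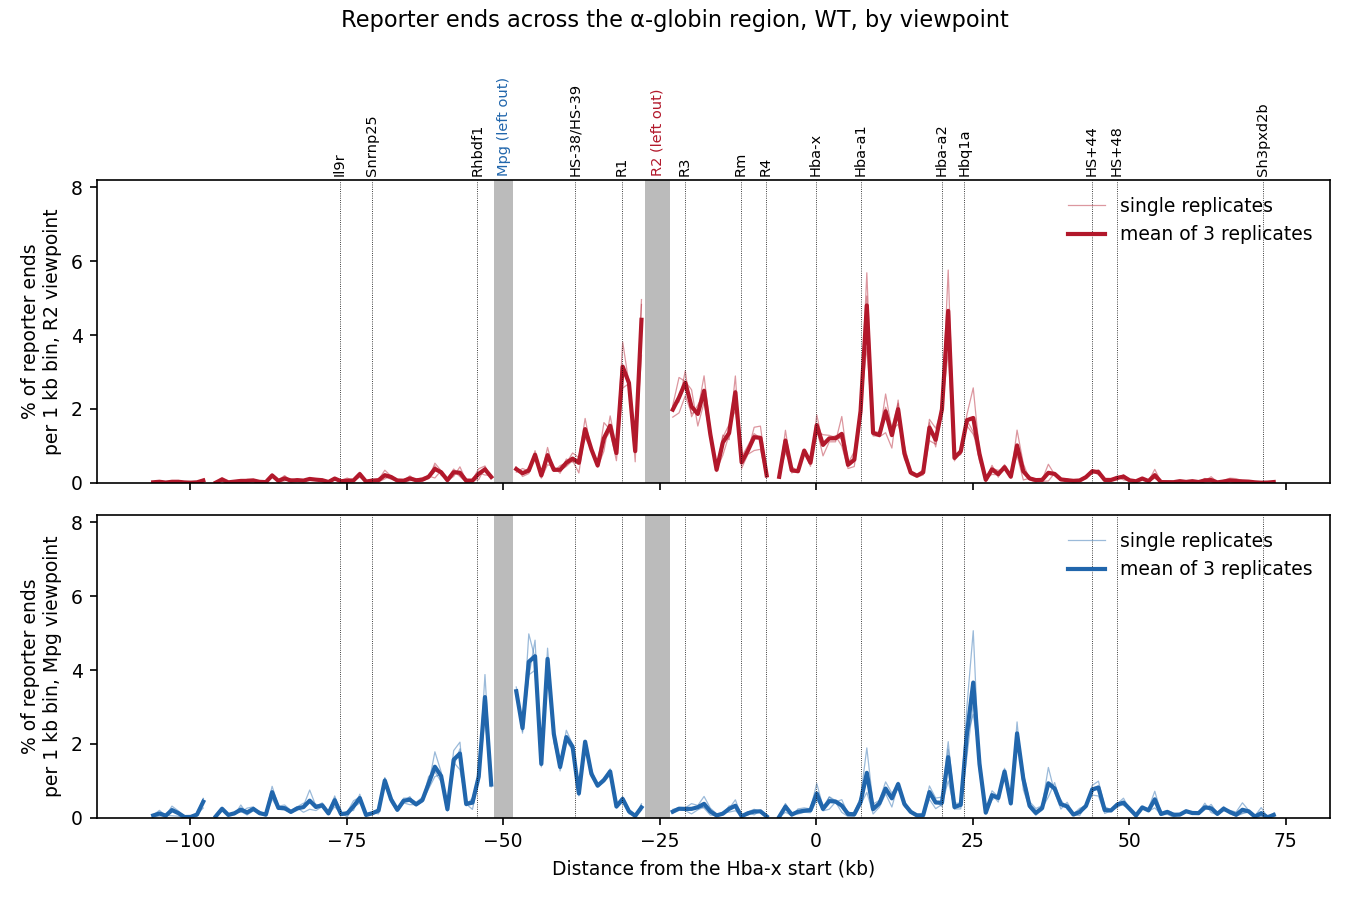
Percent of reporter ends per 1 kb bin from R2 (top) and Mpg (bottom) against distance from the Hba-x start in kb; thin lines are single replicates, thick lines the mean of 3, and grey bands the stretches left out of both. R2 ends peak between R1 and Hba-a2, whereas Mpg ends peak on both sides of Mpg and again next to Hbq1a.

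Bin by bin, 141 of 171 bins of 1 kb with at least 10 counts differed between the viewpoints at an adjusted p under 0.05 (82.5% called), 49 of them higher from R2 (28.7%) and 92 higher from Mpg (53.8%; edgeR's quasi-likelihood test with the sample as a block, Benjamini-Hochberg adjustment over all bins and windows). Between R2 and Hba-x 21 of 22 bins were higher from R2 and 0 from Mpg, and between Hba-x and Hbq1a 23 of 25 were higher from R2 and 0 from Mpg. Upstream of Mpg 46 of 54 bins were higher from Mpg, between Mpg and HS-39 all 9, and past Hbq1a 35 of 49, with 0 higher from R2 in each. Between HS-39 and R2, 5 of 12 bins were higher from R2 and 2 from Mpg. Shares of 1 total cannot all rise, so the split depends on the scale. The median log2 R2 over Mpg of all bins was -1.36 on the matrix total, -1.01 on the total of all chromosome 11 contacts, -0.37 under TMM and -0.36 under DESeq2, and the bins higher from R2 and from Mpg numbered 51 and 70, 53 and 29, and 53 and 26 on those 3 other scales. As a share of all chromosome 11 ends, the stretch between R2 and Hba-x held 15.6% ± 0.691 from R2 and 1.87% ± 0.536 from Mpg, and the stretch past Hbq1a 4.79% ± 0.838 and 9.85% ± 0.424.

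At the 4 enhancers measured, ends were 3.93- to 9.37-fold more frequent from R2. The R3 window (5 kb around the site, placed by its conventional name HS-21 at 21 kb upstream of the Hba-x start) held 11.8, 11.2 and 9.86% of ends from R2 and 0.896, 1.17 and 1.49% from Mpg (log2 R2 over Mpg 3.23, SE 0.27, edgeR adjusted p = 2.1e-26). Rm held 6.58, 6.58 and 6.23% from R2 and 0.626, 0.933 and 1.16% from Mpg (log2 2.87, SE 0.29), and R4, at the far end of the enhancer cluster beside the Nprl3 start, 2.85, 3.55 and 2.07% and 0.364, 0.417 and 0.457% (log2 2.74, SE 0.32). R1, which lies between the boundary and R2, held 9.68, 9.70 and 7.81% from R2 and 2.38, 2.01 and 2.53% from Mpg (log2 1.97, SE 0.26), the smallest difference among the 4 enhancer windows. HS-29, the CTCF site next to R1 whose window overlaps that of R1, held 11.1% ± 0.656 from R2 and 1.02% ± 0.203 from Mpg (log2 3.46, SE 0.27). The Nprl3 promoter, whose gene encodes a subunit of an inhibitor of mTORC1 and whose window overlaps R4 and Rm, held 3.53% ± 0.750 and 0.510% ± 0.0665 (log2 2.77, SE 0.31). In no enhancer window did any R2 value overlap a Mpg value. Outside 10 kb of both viewpoints, the 3 bins with the smallest p that were higher from R2 all lay in Nprl3 introns, starting at 32163001, 32161001 and 32166001, within or beside Rm. The first of these held 342, 395 and 701 ends from R2 and 47, 61 and 156 from Mpg (log2 2.97, SE 0.34).

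The adult globin genes were frequent distal targets of R2 and were also seen from Mpg, at a lower level. The Hba-a1 window held 8.46, 9.37 and 9.81% of ends from R2 and 1.93, 1.22 and 3.08% from Mpg (log2 2.24, SE 0.26, edgeR adjusted p = 4.3e-15). Hba-a2 held 8.74, 10.6 and 10.6% from R2 and 3.60, 2.35 and 4.42% from Mpg (log2 1.57, SE 0.25). From both viewpoints the Hba-a2 value exceeded that of Hba-a1 in each of the 3 replicates, and the ranges of the replicate values of the windows overlapped. Of the 22 fragments of the Hba-a1 window and the 34 of the Hba-a2 window, 12 have a twin of the same sequence, which carried 36.5 to 50.6% of the ends of both windows. Without these fragments the log2 differences were 2.57 for Hba-a1 and 1.44 for Hba-a2, both still called. Hba-x, the embryonic ζ-globin gene, held 5.21% ± 0.374 from R2 and 1.76% ± 0.478 from Mpg (log2 1.60, SE 0.28). Hbq1b, a θ-globin gene whose window shares bins with Hba-a1, held 10.7% ± 0.740 and 3.17% ± 1.18 (log2 1.82, SE 0.25).

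Hbq1a, the θ-globin gene at the downstream end of the cluster, marked the point where the order turned. Its window held 5.30, 5.16 and 6.82% of ends from R2 and 7.34, 6.71 and 10.1% from Mpg. Mpg was above R2 within each sample but the groups overlapped and the window was not called (log2 -0.47, SE 0.24, edgeR adjusted p = 0.059), and its sign turned under TMM (0.52) and DESeq2 (0.57). The difference was stronger towards Mpg under 2 of 16 alternatives, and the lowest log2 value over all of them was -0.53. Farther downstream, at the CTCF sites HS+44 and HS+48, Mpg was higher: 0.961, 0.794 and 0.946% from R2 against 2.61, 2.47 and 1.75% from Mpg at HS+44 (log2 -1.32, SE 0.31), and 0.527% ± 0.0823 against 1.42% ± 0.133 at HS+48 (log2 -1.43, SE 0.35). Relative to the median of all bins both lay close to 0, and neither was called under TMM or DESeq2 (log2 from -0.44 to -0.27). At the edge of the region the promoter of Sh3pxd2b, which encodes an adaptor protein of podosomes, held 0.0787% ± 0.0131 from R2 and 0.430% ± 0.164 from Mpg (log2 -2.36, SE 0.54), a call kept under both.

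The promoters upstream of the boundary were contacted mainly from Mpg. Rhbdf1, which encodes an inactive rhomboid protease and starts 4.20 kb from the Mpg viewpoint, held 0.726, 1.14 and 0.797% of ends from R2 and 6.21, 6.81 and 5.20% from Mpg (log2 -2.79, SE 0.29, edgeR adjusted p = 1.2e-18). Snrnp25, which encodes a protein of the minor spliceosome, held 0.486, 0.546 and 0.801% from R2 and 1.87, 2.15 and 1.82% from Mpg (log2 -1.69, SE 0.33). Il9r, which encodes the interleukin-9 receptor and is the farthest of the 3, held 0.377, 0.260 and 0.285% and 1.49, 1.10 and 0.817% (log2 -1.85, SE 0.38). The boundary window HS-38/HS-39 lies 13.6 kb from R2 and 10.9 kb from Mpg, counted from HS-39, and held 4.75, 3.99 and 4.63% from R2 and 9.07, 9.84 and 9.30% from Mpg (log2 -1.08, SE 0.24). Groups did not overlap in any of these 4 windows. Under TMM and DESeq2, Rhbdf1 kept its call, whereas Snrnp25, Il9r and HS-38/HS-39 were no longer called (log2 from -0.86 to -0.03). The 3 bins beyond 10 kb of both viewpoints with the smallest p that were higher from Mpg lay in Rhbdf1 and Snrnp25, starting at 32114001, 32107001 and 32110001. The first held 32, 31 and 27 ends from R2 and 220, 225 and 251 from Mpg (log2 -2.53, SE 0.42).

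Over the 18 windows, 10 were higher from R2, 7 from Mpg and 1 was not called, against 82.5% of bins called in either direction. From Mpg, levels did not fall steadily with distance. The Hba-a2 window, 70 kb away, held 0.691% of ends per kb and R3, 28.9 kb away, held 0.237%, and their replicate values did not overlap. The Hbq1a window, 73.6 kb away, held 1.61% per kb, a level between the replicate values of HS-38/HS-39 at 10.9 kb (1.57% per kb). Windows differ in their number of fragments (28 in R3, 34 in Hba-a2, 52 in Hbq1a and 40 in HS-38/HS-39), which cancels between viewpoints but not between windows. From R2 the highest levels per kb were HS-29 (2.78%), R3 (2.19%), Hbq1b (2.14%), Hba-a2 (2.00%), Hba-a1 (1.84%) and R1 (1.81%), of which the last 5 overlapped their neighbours in replicate values. Of these, HS-29, R3 and R1 lie close to R2 (-3.6, 4.4 and -5.6 kb), and the globin windows lie 32.5 to 45.5 kb away.

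**Figure D2:**
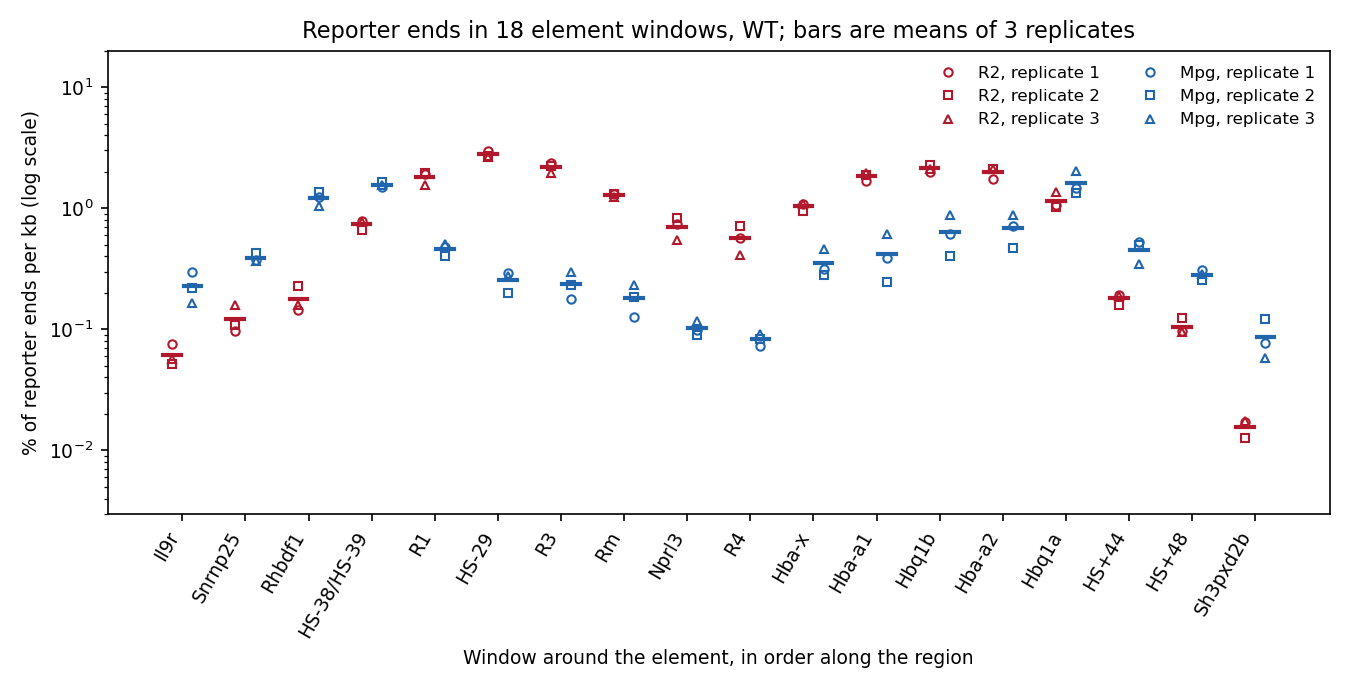
Percent of reporter ends per kb (log scale) in 18 windows in order along the region, from R2 (red) and Mpg (blue); each symbol is a replicate and each bar the mean of 3. From R1 to Hba-a2 all R2 symbols lie above the Mpg symbols, they mix at Hbq1a, and the windows outside, HS-38/HS-39 included, show the reverse.

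The 2 viewpoints lie at different distances from each element, so ends were also compared at the same signed distance from each viewpoint, positive towards the globin genes. Distances of 22 to 27 kb and of -26 to -23 kb, which overlap a left-out stretch from 1 viewpoint, were not compared. Shares of distance bands are of the ends at the compared distances from -55 to 98 kb, not of all matrix ends. Of 141 bins tested by distance, 98 differed (69.5% called), 37 higher from R2 (26.2%) and 61 from Mpg (43.3%); the split was 44 and 50 under TMM, 46 and 46 under DESeq2, and 43 and 47 on the chromosome 11 total. Each such bin sets different sequence side by side, so differences in fragment content do not cancel, and with an offset for fragments per bin 31 and 54 of 140 bins were called. The bin at 18 to 19 kb, at 0 ends from R2 in all 3 libraries, had a position from R2 that also held under 10 ends over all 6 libraries, and without it 37 and 60 bins were called. Within 20 kb downstream of the viewpoints the summed bands differed less than those farther away. Single bins went both ways there: of 20 bins at 2 to 22 kb, 6 were higher from R2 and 12 from Mpg. Ends 3 to 10 kb downstream made up 13.9% ± 0.398 from R2, where R3 lies, and 20.7% ± 1.80 from Mpg, over the Mpg gene and past its end (log2 -0.57, SE 0.13, edgeR adjusted p = 2.5e-05), and ends 10 to 20 kb downstream 9.68% ± 0.911 and 12.2% ± 0.278 (log2 -0.33, SE 0.15). The first call was lost under DESeq2 (-0.18) and on the chromosome 11 total (-0.19). The second kept direction and call under 6 of 15 alternatives. It was lost under TMM, with fragment pairs counted once, with the viewpoint centred on its empty stretch, without replicate 1 or 3 and without the bin at 18 to 19 kb (-0.29), and its sign turned under DESeq2, on the chromosome 11 total and with an offset for fragments per bin (0.19).

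Between 20 and 55 kb downstream, the viewpoints separated. From 20 to 40 kb R2 met Hba-a1 while Mpg met R3 and Rm, and the share was 23.0, 23.6 and 22.6% from R2 against 2.49, 2.83 and 3.94% from Mpg (log2 2.93, SE 0.15, edgeR adjusted p = 1.2e-53). The Hba-x start, 25.4 kb from R2, lies at the distances not compared. From 40 to 55 kb R2 met Hba-a2 and Hbq1a while Mpg met R4 and Hba-x, and the share was 15.9, 17.4 and 19.2% against 3.79, 2.95 and 4.63% (log2 2.22, SE 0.15). From 55 to 98 kb the order turned. There R2 had passed the globin cluster and met HS+44 and HS+48, while Mpg met both adult globin genes and Hbq1a, and the share was 6.10, 4.54 and 6.15% from R2 against 30.6, 28.0 and 34.1% from Mpg (log2 -2.47, SE 0.13). These 3 bands kept direction and call under each of 15 alternatives, with log2 values of 2.16 to 3.32, 1.62 to 2.62 and -2.82 to -2.08. The bins with the smallest p lay in these bands, 4 of the 6 in windows of globin genes. R2 was higher at 33 to 34 kb (Hba-a1; 641, 797 and 1378 ends against 14, 11 and 52), at 46 to 47 kb (Hba-a2; log2 4.61, SE 0.26) and at 38 to 39 kb, where the position from R2 lies in no named window (log2 6.48, SE 0.42). Mpg was higher at 74 to 75 kb (Hbq1a; 736, 650 and 1866 ends against 39, 32 and 19), at 82 to 83 kb, where the position from Mpg lies in none (log2 -6.72, SE 0.45), and at 75 to 76 kb (past the end of Hbq1a but in its window, log2 -5.16, SE 0.35).

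**Figure D3:**
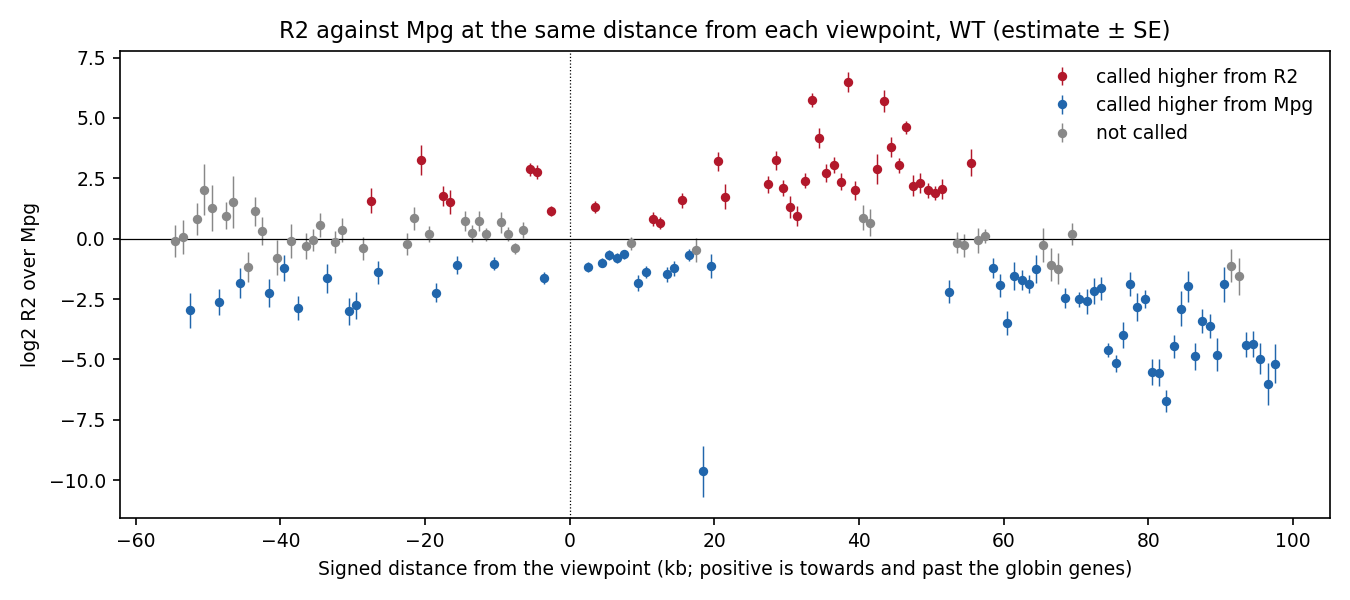
Log2 R2 over Mpg with its SE for 1 kb bins at the same signed distance in kb from each viewpoint, coloured by call. Called bins higher from R2 gather between 27 and 55 kb downstream (23 of 28) and called bins higher from Mpg between 55 and 98 kb (34 of 43).

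Upstream of the viewpoints, away from the globin genes, 7 of 50 distance bins were higher from R2 and 14 from Mpg, with log2 values from -3.01 (-31 to -30 kb) to 3.26 (-21 to -20 kb), and in summed bands, in which these combine, the log2 values ran from -0.56 to 0.53. Between 3 and 10 kb upstream R2 met R1 and HS-29 and Mpg met Rhbdf1, and the share was 11.4% ± 1.27 from R2 and 7.86% ± 0.926 from Mpg (log2 0.53, SE 0.15, edgeR adjusted p = 0.00085), a call lost with an offset for fragments per bin (0.26) and with the viewpoint centred on its empty stretch (0.24). From 10 to 20 kb it was 6.91% ± 0.419 and 7.48% ± 0.738 and from 20 to 40 kb 3.80% ± 0.490 and 4.99% ± 1.09, neither of them called and both with overlapping groups. These 2 bands varied with the setting. The nearer was called higher from Mpg under 3 of 15 alternatives and the farther under 5, with log2 values down to -0.67 and -0.63, and both turned sign under others. From 40 to 55 kb it was 1.43% ± 0.275 and 2.12% ± 0.498 (log2 -0.56, SE 0.25, edgeR adjusted p = 0.039) with overlapping groups, a call lost under TMM, DESeq2 and the chromosome 11 total, and without replicate 1 (-0.43) or 2 (-0.33).

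The slope of ends per kb against distance, both in log2 units over 3 to 55 kb, gave 1 exponent per side. Downstream, the R2 level was not monotonic: it fell from 2.45% ± 0.117 of matrix ends per kb at 4.5 to 7 kb to 0.651% ± 0.0945 at 15 to 22 kb and was 1.62% ± 0.0850 at 27 to 35 kb, where the globin genes lie. Over the whole range its exponent was -0.275, -0.193 and -0.158 in replicates 1, 2 and 3, against -1.32, -1.39 and -1.11 from Mpg. Upstream both decayed, with -1.32, -1.21 and -1.06 from R2 and -0.823, -0.820 and -0.938 from Mpg. The downstream difference was 1.06 ± 0.124 (SD of 3 paired differences) and the upstream difference -0.339 ± 0.192, each of the same sign in 3 of 3 samples (exact sign-flip p = 0.25). Over 5 to 40 kb they were 1.61 and -0.715. Of the ends 3 to 55 kb from the viewpoint on either side, 73.6% ± 0.457 lay downstream from R2 and 64.9% ± 3.04 from Mpg. The pooled share combined opposite directions. At 3 to 20 kb it was 56.3% from R2 and 68.2% from Mpg, and at 20 to 55 kb 89.7% and 52.2%.

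**Figure D4:**
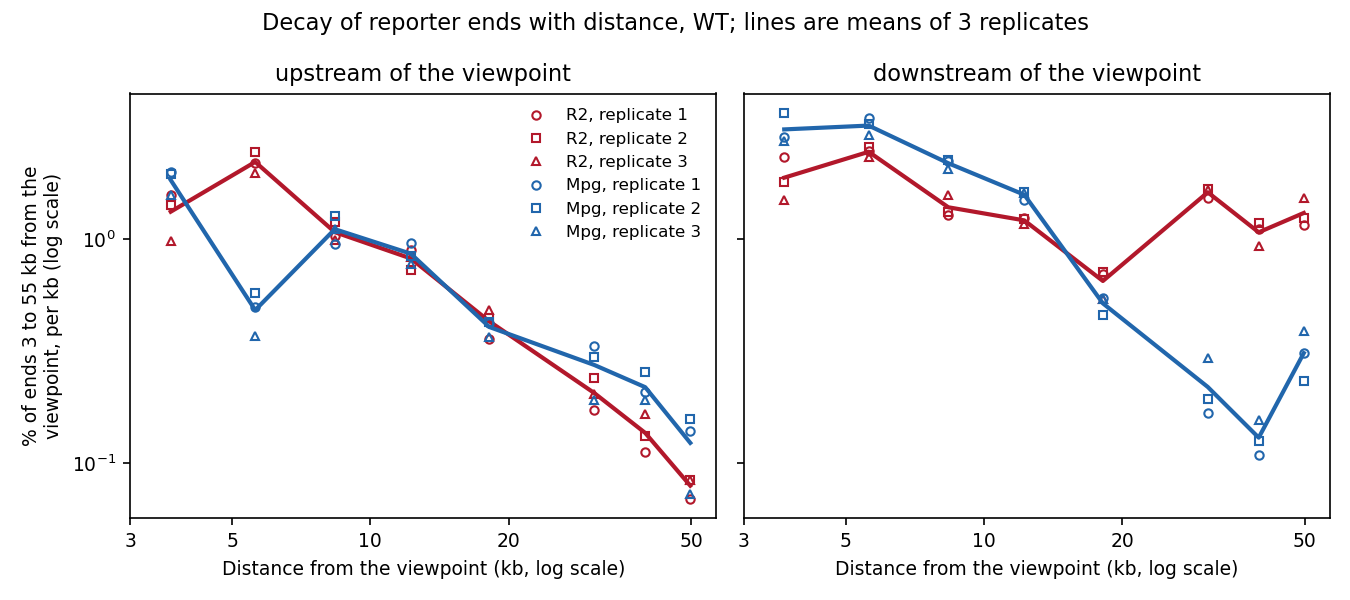
Percent of matrix ends per kb within 3 to 55 kb of the viewpoint against distance, both on log scales, upstream (left) and downstream (right); symbols are replicates and lines means of 3. Upstream beyond 7 kb R2 lies at 0.625 to 1.06 times Mpg, whereas downstream from 27 kb on R2 lies above Mpg by 4.21- to 8.24-fold.

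The pair matrix asks which sites met each other together with the viewpoint. Seen with R2, 77.4% ± 1.98 of contacts (77.8, 79.2 and 75.3%) joined 2 sites between the HS-38/HS-39 midpoint and Hbq1a, against 20.6% ± 4.81 (19.5, 16.4 and 25.8%) seen with Mpg. Seen with Mpg, 44.8% ± 3.52 of contacts (45.1, 48.2 and 41.2%) joined 2 sites upstream of that midpoint, against 6.79% ± 0.984 (5.74, 6.92 and 7.70%) seen with R2. Contacts across the boundary, with 1 end on each side, made up 5.84% ± 0.442 from R2 and 14.1% ± 1.94 from Mpg. This difference of -8.28 points was -18.0 with each fragment pair counted once and -19.3 without contacts within a 1 kb bin, and for contacts upstream of the boundary the difference of -38.1 points was -24.9 and -30.6. Contacts across the boundary had different partners. From Mpg, 8.04% ± 0.881 of contacts joined an upstream site to one between the boundary and Hbq1a, and 6.08% ± 1.31 joined it to one past Hbq1a, in a stretch of 49 kb. From R2 these shares were 4.86% ± 0.492 and 0.978% ± 0.0578. Contacts between the enhancer and globin block and the stretch past Hbq1a made up 3.86% ± 0.305 from R2 and 3.44% ± 0.343 from Mpg, with overlapping groups (exact sign-flip p = 0.5), and pairs within the stretch past Hbq1a were more frequent from Mpg (6.10% ± 1.46 and 17.1% ± 1.04). The division into 3 blocks was chosen after the matrices had been seen, and groups overlapped only for contacts between the enhancer and globin block and the stretch past Hbq1a.

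Among 436 pairs of 5 kb bins with at least 10 counts, 137 differed (31.4% called), 68 higher from R2 (15.6%) and 69 higher from Mpg (15.8%). The first kind filled 1 block: 63 of the 78 pairs between the boundary and Hbq1a were higher from R2 and 0 from Mpg. The second kind fell mostly into 3 groups. Of the pairs upstream of the boundary 38 of 82 were higher from Mpg and 0 from R2, of those joining upstream sites to the stretch past Hbq1a 13 of 80 and 0, and of those within the latter stretch 13 of 37 and 0. In that last group 10 of the 13 were contacts within a single bin, where all 10 single bins tested were called. Without the sample as a block, pairs higher from Mpg rose to 128 and pairs higher from R2 to 76. With each fragment pair counted once there were 110 and 79, and without replicate 3 there were 41 and 52.

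**Figure D5:**
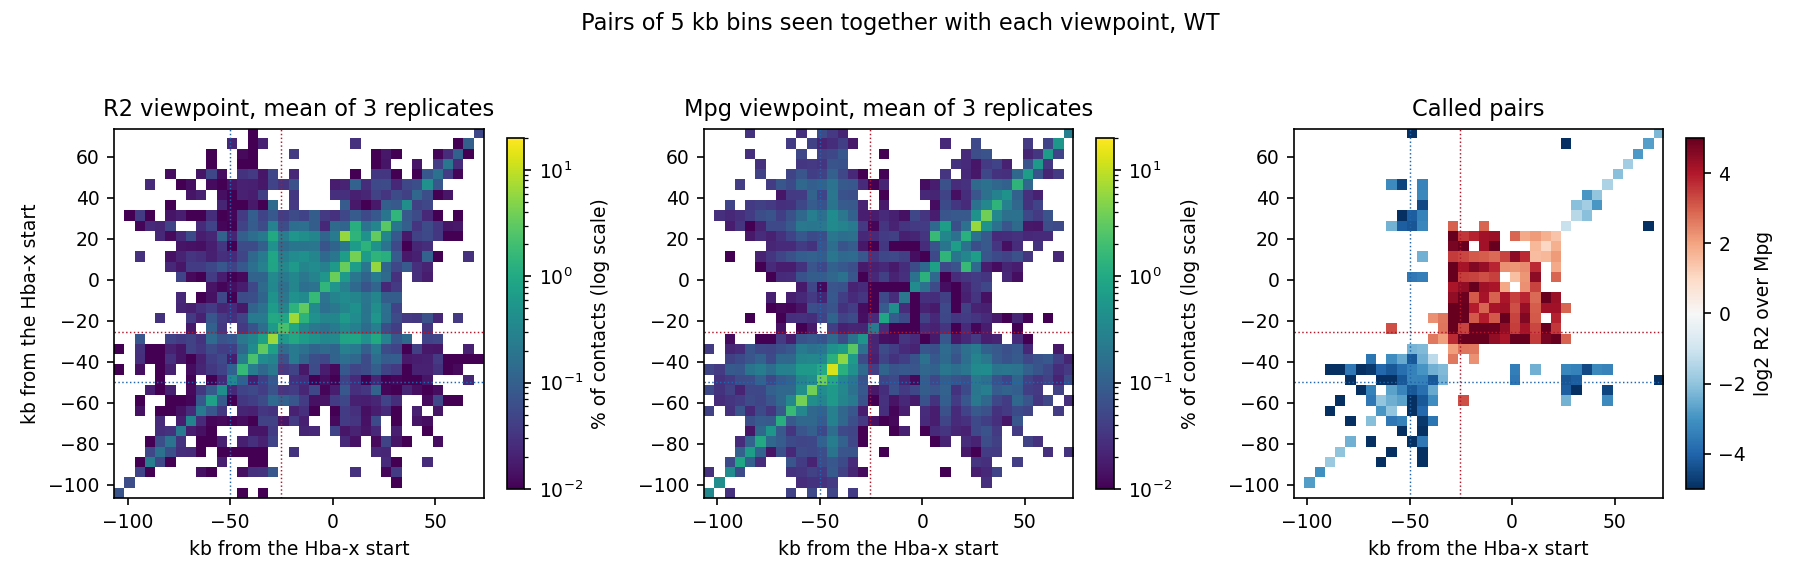
Mean percent of contacts for pairs of 5 kb bins seen with R2 (left) and Mpg (middle, both on a log colour scale), and log2 R2 over Mpg of the 137 called pairs (right), with axes in kb from the Hba-x start and dotted lines at R2 (red) and Mpg (blue). Red pairs form a square between the boundary and Hbq1a, and blue pairs lie upstream of it, along the diagonal past Hbq1a, and where these meet.

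Of pairs of different bins at least 10 kb from both viewpoints, the one with the smallest p joined the adult globin genes. The bins starting at 32180001 and 32195001 held 463, 475 and 835 contacts from R2 and 205, 117 and 360 from Mpg (log2 1.88, SE 0.26, edgeR adjusted p = 1.9e-11). The windows of Hba-a1 and Hba-a2 together held 482, 494 and 869 contacts from R2 and 208, 117 and 368 from Mpg, or 6.32% ± 0.832 and 1.72% ± 0.572 of all contacts. A fragment with a twin in the other window lay at one end or both of 78.0 to 90.0% of these contacts in each library, so for most of them the gene at one end or both is uncertain. Without the twins the log2 difference was 2.05 and still called. The other named pairs were contacts within 1 bin, higher from R2 in the bins starting at 32180001 and 32165001 and higher from Mpg in those starting at 32110001, 32205001 and 32200001. The last held 224, 164 and 491 contacts from R2 and 645, 518 and 1269 from Mpg (log2 -1.10, SE 0.24).

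Enhancers met each other, and met globin promoters, far more often together with R2 than with Mpg in raw counts. Over all element pairs with enough counts, 42.1% were called higher from R2 and 3.51% higher from Mpg. All 5 pairs of non-overlapping enhancer windows were higher from R2, by log2 differences of 3.64 to 4.94. R1 with R3 was seen 123, 87 and 88 times from R2 and 4, 2 and 7 times from Mpg (log2 4.94, SE 0.67, edgeR adjusted p = 1.3e-11). All 8 pairs of R1, R3, Rm or R4 with Hba-a1 or Hba-a2 were higher from R2, by 3.32 to 4.66. Other pairs of that block differed as much or more, such as HS-29, whose window overlaps that of R1, with Hba-a1 (5.71) and with R3 (5.51), and the Nprl3 promoter with Hba-a2 (4.76). R1 with Hba-a1 was seen 81, 72 and 75 times from R2 and 5, 5 and 5 times from Mpg (log2 4.30, SE 0.71), and R1 with Hba-a2 75, 100 and 75 times and 17, 9 and 4 times (log2 3.59, SE 0.64). The 8 pairs summed to 463, 434 and 493 contacts from R2 and 57, 37 and 37 from Mpg, or 4.96% ± 0.777 and 0.355% ± 0.118. In these counts, how often the viewpoint reached a site and how often the sites met cannot be told apart.

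Pairs of an upstream promoter with an enhancer or an adult globin promoter were rare from both viewpoints. Il9r, Snrnp25 or Rhbdf1 with an enhancer summed to 37, 36 and 37 contacts from R2 and 38, 37 and 66 from Mpg (0.395% ± 0.0796 and 0.364% ± 0.0512), and 0 of the 10 pairs tested was called (12 in all, 0 of 10 also at an unadjusted p under 0.05). The same promoters with a globin promoter summed to 54, 13 and 18 and to 32, 14 and 21 contacts, and 0 of 4 was called. Rhbdf1 with Hba-a1 was seen 18, 3 and 3 times from R2 and 14, 2 and 12 times from Mpg (log2 0.07, SE 1.10) and was not called. Of the 3 pairs among the upstream promoters, Snrnp25 with Rhbdf1 was higher from Mpg, with 21, 9 and 17 contacts against 0, 2 and 0 (log2 -3.97, SE 1.34, edgeR adjusted p = 0.012), a call lost without replicate 1 (-3.20) or 3 (-3.32). Rhbdf1 was a member of all 4 element pairs higher from Mpg, the others being with HS-38/HS-39, Hbq1a and HS+44 (log2 -2.63, -2.95 and -4.14). The call with HS-38/HS-39 was likewise lost without replicate 1 (-2.30) or 3 (-2.43), that with Hbq1a without replicate 1 (-2.16) or 2 (-2.80) and that with HS+44 without replicate 2 (-3.42). None of the 4 was called with windows of 3 bins, and 9 pairs were called higher from Mpg with fragment pairs counted once. Over all 146 pairs of elements whose windows do not overlap, 114 had enough counts, and 48 of these were higher from R2 and 4 from Mpg.

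Given that the viewpoint had met one site, the partners of that site were counted, a share that still depends on how often the viewpoint reached the partner. When R1 was present with R2, the other end lay at an adult globin promoter in 18.7, 22.5 and 19.7% of contacts (156 of 835, 172 of 766 and 150 of 760). When R1 was present with Mpg, it did so in 7.28, 6.48 and 2.80% (22 of 302, 14 of 216 and 9 of 321). Raw shares of partners of R1 among the other enhancers differed in the same direction, with 22.9% ± 2.80 from R2 and 4.10% ± 0.697 from Mpg, and partners among the upstream promoters in the other, with 1.60% ± 0.483 and 7.49% ± 0.577. The same held for enhancers as partners of R3 (27.8% ± 2.31 and 12.6% ± 2.84), Rm (32.9% ± 4.76 and 18.5% ± 3.08) and R4 (36.6% ± 5.30 and 13.8% ± 5.03). The windows of Rm and R4 overlap. The enhancer shares of both, and the ratios below, therefore include short contacts with adjoining bins of the other window. Of contacts with an adult globin window, 43.5% ± 3.52 had an enhancer at the other end from R2 and 12.5% ± 5.25 from Mpg. Globin promoters as partners of R4 held 20.3% ± 0.872 and 7.32% ± 7.56, on 12, 2 and 2 contacts from Mpg. Globin promoters as partners of R3 (19.0% ± 3.12 and 12.3% ± 6.05) and Rm (16.1% ± 1.78 and 8.68% ± 7.36) overlapped between the groups. Groups did not overlap in the other shares just given, and each of those gave the smallest exact sign-flip p of 0.25.

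The order was not kept once the overall reach of each viewpoint was taken into account. Each partner share was divided by the share of all matrix ends outside the given site's window that lay in the partner windows. A ratio of 1 means that a partner was met as often as among all those ends, which include contacts that hold the site. Those ends also include contacts within a single 1 kb bin (42.2% of the R2 and 52.6% of the Mpg matrix). Partner shares cannot include such contacts, so a ratio of 1 is not a neutral value. For R1 with the adult globin promoters this ratio was 0.981, 1.01 and 0.891 from R2 in replicates 1, 2 and 3 and 1.29, 1.78 and 0.364 from Mpg, with overlapping groups (0.962 ± 0.0641 and 1.14 ± 0.718, exact sign-flip p = 0.75). For the other enhancers as partners the ratio was higher from Mpg, the opposite of the raw shares. It was 1.10 ± 0.101 from R2 and 1.74 ± 0.240 from Mpg for R1, 1.45 ± 0.0642 and 3.58 ± 0.478 for R3, 1.42 ± 0.0879 and 5.02 ± 1.36 for Rm, and 1.41 ± 0.213 and 3.23 ± 1.16 for R4. Groups did not overlap in these 4 (exact sign-flip p = 0.25 each), nor for R3 with the adult globin promoters (0.880 ± 0.101 and 2.12 ± 0.526). They overlapped for Rm with those promoters (0.788 ± 0.125 and 2.07 ± 2.27) and for R4 with them (1.03 ± 0.144 and 1.41 ± 1.33). Groups also overlapped for the enhancers as partners of the adult globin windows (1.26 ± 0.0729 and 2.67 ± 1.37) and for the upstream promoters as partners of R1 (0.825 ± 0.310 and 0.813 ± 0.169). The ratio has a ceiling set by the overall share, which for the partners of Rm was 23.1% ± 2.56 from R2 and 3.77% ± 0.463 from Mpg, so the highest value it could reach was lower from R2. The ratio of odds, which has no such ceiling, was also higher from Mpg with groups apart for the enhancers as partners of R1 (1.13 ± 0.136 and 1.77 ± 0.251), R3 (1.62 ± 0.0850 and 3.96 ± 0.629), Rm (1.64 ± 0.172 and 5.97 ± 1.83) and R4 (1.67 ± 0.381 and 3.64 ± 1.47). The Mpg ratios rest on few contacts with the other enhancers, 10 to 14 a library for R1, 12 to 21 for R3, 16 to 21 for Rm and 6 to 15 for R4. On the upstream side, the ratio for the other upstream promoters as partners of Snrnp25 was higher from R2, with groups apart (5.41 ± 2.05 and 1.99 ± 1.13). That ratio rests on 4, 3 and 2 contacts from R2, and its ratio of odds overlapped between the groups. None of these ratios takes account of the distance between a site and its partner. The direction of the difference between viewpoints therefore depends on whether raw shares or these ratios are compared.

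As a whole, R2 held more of its contacts inside the region. Both ends fell in it for 47.4, 45.8 and 48.1% of chromosome 11 contacts from R2 and for 36.8, 32.7 and 41.0% from Mpg, a difference of 10.3 percentage points ± 3.00 (SD of paired differences, exact sign-flip p = 0.25). The balance lay mostly next to the region: 8.59% ± 1.34 of R2 ends and 15.2% ± 0.722 of Mpg ends fell outside it but within 1 Mb, while 35.7% ± 1.57 and 38.7% ± 2.89 fell beyond, where the groups overlapped but R2 was lower in each of the 3 samples (paired difference -3.01 points ± 1.35, exact sign-flip p = 0.25). Contacts within a single 1 kb bin made up 42.2% ± 5.46 of the R2 matrix and 52.6% ± 4.09 of the Mpg matrix and were higher from Mpg in each sample. Their part in the results was not tested beyond leaving them out. The stretch between R2 and Hba-x then held 26.6% ± 2.28 and 4.63% ± 1.07 of ends, and the stretch past Hbq1a 7.36% ± 0.988 and 19.4% ± 2.12. Contacts over more than 20 kb made up 19.9% ± 2.64 and 19.1% ± 2.54.

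Whether the contrast between the viewpoints depends on HS-38 and HS-39 was tested by adding the 3 D3839 samples. The viewpoint by genotype term was called in 0 of 172 bins (edgeR quasi-likelihood test, Benjamini-Hochberg, 0% called), with 33 bins at an unadjusted p under 0.05, of which 15 were up and 18 down in D3839 relative to WT. The R1 window gave a log2 interaction of -0.65 (SE 0.24, edgeR adjusted p = 0.13), Hba-a1 -0.64 (SE 0.29, adjusted p = 0.18) and Rhbdf1 0.43 (SE 0.26, adjusted p = 0.33). The count depended on scale and samples, with 29 bins called under TMM, 6 without WT replicate 2 and 24 without WT replicate 3. Genotype and the library kit, which differed between WT and D3839, cannot be told apart.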

How the data were processed

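Tri-C contacts from the R2 and Mpg viewpoints of 3 WT samples, and of 3 D3839 samples for the interaction, were analysed. Per the labels and the study's methods, the authors trimmed reads with Trim Galore, aligned them to mm9 with Bowtie within the CCseqBasic pipeline (versions not given in the sources used here) and kept each unique molecule once. Captured fragments never count as reporters, and a read enters only where it holds at least 2 reporters. The deposited values are unique contact counts per pair of fragments, not normalized. WT libraries came from parallel reactions pooled per replicate. All 59102 fragments named in the 6 WT files equal NlaIII fragments of mm9.

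Fragments were placed by midpoint in 180 bins of 1 kb, and genes by the mm9 annotation (GENCODE M1). Promoter windows lie around the annotated start and enhancer and CTCF windows at the conventional distance in the site's name from the Hba-x start, known to about 1 kb. Windows span 5 bins (6 for HS-38/HS-39, 4 for HS-29). Viewpoint centres were 32151000 and 32126500. Ends and contacts with at least 10 counts over 6 libraries entered fits in R 4.3.3 with edgeR 4.0.16 (quasi-likelihood test, library size the matrix total, sample as block), with Benjamini-Hochberg adjustment over all rows of a fit at 0.05. SE is that implied by the test statistic. Single values used exact sign-flip and permutation tests. Tables and figures were made with python 3.11.15, numpy 2.4.6, pandas 2.3.3, scipy 1.17.1 and matplotlib 3.10.9.

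Replicate numbers pair the libraries because both viewpoints come from 1 sample. Deviations from the group mean correlated at -0.072, -0.181 and 0.039 within samples and at -0.174 to 0.252 between them. Elements were named whatever their values, and in addition the 3 bins, distance bins and bin pairs with the smallest p in each direction without overlap, at least 10 kb from the viewpoints. The R3 and Rm fragments were added to the sequences fixed by that rule (R1, Rhbdf1 and the adult globin genes). The members and lists were chosen with earlier results of these data known. On simulated data with 3-fold changes edgeR recovered 39 of 40 changed bins of 171 with 0 false calls, 39 of 40 distance bins of 141 with 1, and 25 of 39 pairs of 410 with 2. The simulated counts were independent, had a single fixed dispersion and held few changed rows. In the data, chi-square per degree of freedom between replicates of a viewpoint was 6.14 to 11.7, and most bins were called. The simulation therefore does not give the error rate of the calls in the data. Alternatives were normalization (TMM, DESeq2 1.42.0, all chromosome 11 contacts), filters, bin and window size, counting, the block and leaving out each replicate.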

Additional observations from a re-analysis of the deposited data

How the results depend on the processing

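Under every alternative run, the windows of R1, HS-29, R3, Rm, Nprl3, R4, Hba-x, Hba-a1, Hbq1b and Hba-a2 stayed higher from R2, and those of Rhbdf1 and Sh3pxd2b higher from Mpg. Calls on the Mpg side depended on scale: bins higher from Mpg fell from 92 to 29 under TMM and 26 under DESeq2, and windows from 7 to 2 under both, where Hbq1a turned to 0.52 and 0.57. Larger bins leave fewer to test: 27 and 59 bins of 2 kb, 17 and 27 distance bins of 2 kb (higher from R2 and from Mpg), and 24 pairs of 10 kb bins higher from R2. Distance bands turned sign under TMM (-20 to -10 kb, 0.20), under DESeq2 (-40 to -20 kb, 0.021; -20 to -10 kb, 0.285; 10 to 20 kb, 0.062), on the chromosome 11 total (0.010, 0.274 and 0.051 for the same 3) and with an offset for fragments per bin (10 to 20 kb, 0.19); the cause was not tested.

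Without the replicate block, the pairs higher from Mpg numbered 128 against 69, and no other count moved by over 1.5 times. Counting each fragment pair once gave 110 such pairs and 9 element pairs, against 4, and windows of 3 bins gave 0 element pairs. Leaving out each replicate gave 41 to 47 pairs and 1 to 2 element pairs higher from Mpg. Rhbdf1 with Hba-a1, not called, turned to -0.44 with fragment pairs counted once, -0.31 without adjacent fragments, -0.27 without pairs within 1 bin, -0.41 with windows of 3 bins, -0.99 without the fragments shared by Hba-a1 and Hba-a2 and took values of -0.50 to 0.86 with single replicates left out, and Rhbdf1 with Hba-a2 to -0.019 with fragment pairs counted once. The interaction count was 29 under TMM and 0 to 24 when single replicates were left out.

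The difference in the share inside the region was 14.3 points without adjacent fragments and 13.9 with contacts within 1 Mb as the total. That of the downstream share was -11.9 points at 3 to 20 kb, 37.6 at 20 to 55 kb and 14.3 when divided by fragments. The exponent difference was -0.715 upstream and 1.61 downstream at 5 to 40 kb, and downstream 0.889 when divided by fragments and 0.725 with fragment pairs counted once. For contacts upstream of the boundary the difference was -24.9 points with pairs counted once, -30.6 without same-bin contacts and -33.9 with the boundary 3 kb upstream, and for contacts across it -18.0, -19.3 and, with the boundary 3 kb downstream, -6.66. For globin partners of R1 it was 11.2 points with windows of 3 bins. Leaving out same-sequence fragments, leaving out adjacent fragments (except for the share inside the region), leaving out the distance bin at 18 to 19 kb, the ratio of odds and giving the stretches as shares of all chromosome 11 ends were chosen after seeing the data. Upstream promoters met enhancers in 36 to 66 contacts a library, and whether this depth accounts for the missing calls was not tested.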
